A study of Oryza sativa with 6 samples.

Results

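Of the well-studied genes that act on grain size in rice, 8 are described here in developing seeds: GW2, GW5, GW7, GW8, GS5, GL3.1, TGW6 and GRF4. They are given by a list of locus identifiers, a rule that uses no measured value, and all 8 have a row among the 55986 loci of the deposited table. Expression was measured by RNA sequencing in dehulled seeds collected 10 to 14 days after flowering. The 3 libraries of rbpl, a line with a knockdown of the RNA-binding protein RBP-L, are named rbpl-1 to rbpl-3, and the 3 libraries of wild-type ZH11, a japonica cultivar, are named WT-1 to WT-3. Values of single libraries are given in that order. All plants grew in chambers at 27 °C with 12 h of light and 12 h of dark. The design text calls the libraries of a group biological repeats. Since the knockdown is represented by 1 line, effects of RBP-L and any other difference between that line and ZH11 cannot be told apart.

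The size of a rice grain is limited by the spikelet hull that encloses it, and many grain size genes are known for controlling cell division or cell elongation in the hull while the panicle is still growing. The hull is taken off before RNA is extracted from dehulled seeds. The genes work through several routes. Ubiquitin tagging of proteins (GW2), brassinosteroid signalling (GW5 and GL3.1), transcription (GW8 and GRF4), microtubule and cell shape control (GW7), a peptidase (GS5) and auxin release (TGW6) are all represented, and the protein encoded by GW8 is known to bind the GW7 promoter and repress GW7.

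The libraries held between 44187374 and 50714582 reads, as recovered from the steps of the RPKM values (read counts divided by gene-model length and by library size). RBP-L (LOC_Os04g53440) itself averaged 14.9 ± 0.481 RPKM in rbpl seeds and 56.9 ± 5.79 RPKM in WT seeds (SD, n = 3 each), a log2 fold change of −1.86 (adjusted p = 0.000159, limma). WT-1 differed from its group more than any other library did. At 576 tested loci it lay at least 2-fold, on the scale of RPKM + 1, from both other WT libraries, where each other library had 3 to 14 such loci. Results that rest on it are therefore given with and without it. The seed markers, 9 loci listed from general knowledge of rice for storage proteins, starch synthesis and their regulators, were all above 0 in every library and summed to between 13787 and 15239 RPKM in rbpl seeds and between 14853 and 22101 RPKM in WT seeds. By limma 0 of the 9 changed (3 with an unadjusted p below 0.05, 0 by limma-voom), with log2 fold changes from −0.85 to 0.18 and a smallest adjusted p of 0.0671, and 2 of the 9 fell without WT-1. The 6 loci listed for photosynthesis in green tissue were also above 0 in every library. They summed to between 4756 and 5524 RPKM in rbpl seeds and between 2105 and 4302 RPKM in WT seeds. Of the 6, 3 rose in rbpl by limma (5 of 6 without WT-1). Over all tested loci, limma called 6.56% with all libraries and 18.0% without WT-1 (adjusted p below 0.05). With all libraries, 21.6% had an unadjusted p below 0.05. WT-1 had the highest sum of seed markers and the lowest sum of green tissue markers, and the part of tissue make-up in the results below was not tested. In such bulk samples, fewer cells of a type and less RNA per cell cannot be told apart.

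Of the 8 genes, 7 had reads and 5 passed the filter for testing, a mean of at least 1 RPKM in at least 1 group. Among the 5 tested, GW7 fell in the knockdown, and the other 4 did not pass the test. GW7 and GS5 entered the test through their WT mean alone, since their rbpl means were below 1 RPKM, and with no filter GW7 was not called (adjusted p = 0.0975, limma). Over all 17507 tested loci, 6.56% changed by limma on log2(RPKM + 1) with a Benjamini-Hochberg adjusted p below 0.05, 605 rising and 543 falling. With 5 genes tested, 1 call does not set the list apart from that background. Over the 7 genes with reads, with no filter, 5 fitted log2 fold changes lay below 0 and 2 (GW5 and GW8) above it. The median of the 7 was −0.10, beside a median of −0.01 and 57.2% below 0 over all 32287 loci with reads. That set includes the loci below the filter, whose changes the RPKM + 1 scale understates. With the filter, the median was −0.11 over the 5 tested genes and −0.04 over all tested loci. The signs of GW2, GW5 and GRF4 turned when certain single libraries were left out, as given below. In the fit with no filter, 0 of the 7 were called by limma, beside 2.43% of all loci with reads. An unadjusted p below 0.05 by limma was found at 2 of the 7, beside 5239 of the 32287 loci with reads. Without WT-1 and with the filter, GW7 was again the 1 gene called of the 5, beside 18.0% of all tested loci.

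**Figure D1:**
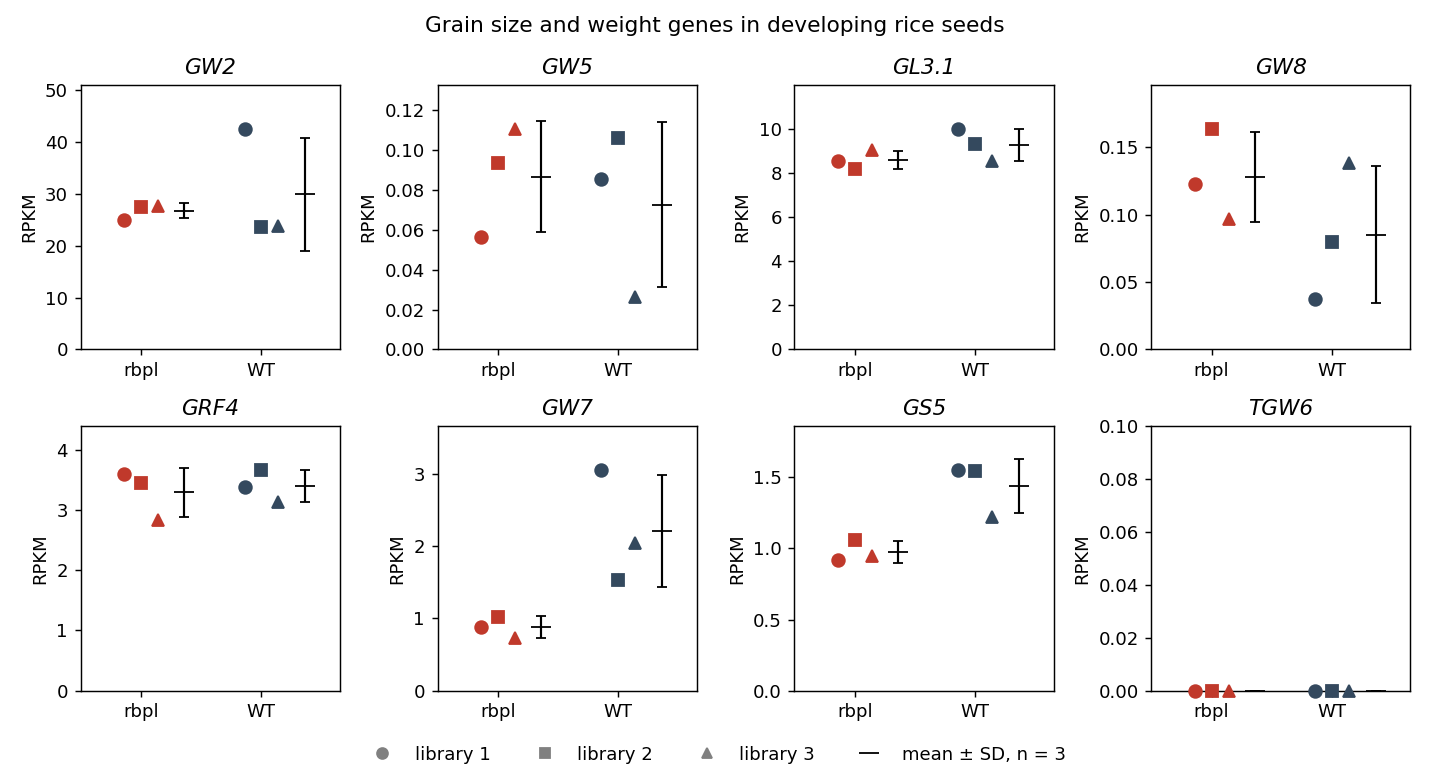
RPKM of each grain size gene in the 3 rbpl and 3 WT libraries, each panel with its own axis from 0; points are libraries and the bar is the mean ± SD. GW7 and GS5 are lower in every rbpl library than in every WT library, as are 17.9% of all tested loci. The GW2 value of WT-1 lies far above the other 5, and TGW6 is listed at 0 throughout.

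GW2 (LOC_Os02g14720, chromosome 2) encodes a RING-type E3 ubiquitin ligase known to restrict grain width. It was the most abundant of the 8 in every library, at 25.03, 27.5 and 27.6 RPKM in the rbpl libraries and 42.5, 23.5 and 23.8 RPKM in the WT libraries. The 3 rbpl values lay between WT-1 on one side and WT-2 and WT-3 on the other, so the groups overlapped. The group means were 26.7 ± 1.46 RPKM in rbpl seeds and 29.9 ± 10.9 RPKM in WT seeds (SD, n = 3 each). The spread among the WT libraries, 36.3% of their mean, far exceeded the 1.73% that counting error alone gives at these read numbers (2455 to 4725 reads per WT library). By limma the log2 fold change was −0.11, with a 95% interval from −0.60 to 0.39 (adjusted p = 0.818). Without WT-1 its sign turned, to 0.17 (adjusted p = 0.216, limma), so no direction can be given for GW2.

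GL3.1 (LOC_Os03g44500, chromosome 3) encodes a protein phosphatase with Kelch repeats, also called OsPPKL1, which is known to limit grain length and to act in brassinosteroid signalling. Its level was 8.54, 8.18 and 9.01 RPKM in the rbpl libraries and 9.98, 9.28 and 8.51 RPKM in the WT libraries. The groups overlapped, since rbpl-3 and rbpl-1 were above WT-3. GL3.1 had 1523 to 1758 reads per library. The spread within each group exceeded counting error, 4.89% against an expected 2.53% in rbpl and 7.94% against 2.47% in WT. Its log2 fold change of −0.10 had a 95% interval from −0.33 to 0.14 (adjusted p = 0.633, limma).

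GW5 (LOC_Os05g09520, chromosome 5) encodes a calmodulin-binding protein known to act on the brassinosteroid pathway by restraining the kinase GSK2. It had 4, 7 and 8 reads in the rbpl libraries and 6, 7 and 2 reads in the WT libraries. These correspond to 0.0562, 0.0934 and 0.111 RPKM in rbpl and to 0.0853, 0.106 and 0.0264 RPKM in WT. The groups overlapped widely. Over the groups, 19 reads in rbpl and 15 reads in WT gave a depth-corrected ratio of 1.23 with an exact 95% interval from 0.592 to 2.60, which covers counting error only. A difference in GW5 was not detectable at this depth.

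GW8 (LOC_Os08g41940, chromosome 8) encodes OsSPL16, a transcription factor of the SPL family (SQUAMOSA promoter-binding-like proteins) that is a target of the microRNA miR156 and is known to widen the grain. It too was close to the limit of detection, with 10, 14 and 8 reads in the rbpl libraries and 3, 6 and 12 reads in the WT libraries. The levels were 0.123, 0.163 and 0.0968 RPKM in rbpl and 0.0373, 0.0795 and 0.139 RPKM in WT. WT-3 lay above both rbpl-1 and rbpl-3, so the groups overlapped. The group sums of 32 reads in rbpl and 21 reads in WT gave a depth-corrected ratio of 1.48 (exact 95% interval from 0.827 to 2.70, counting error only), and permuting the libraries gave an exact p of 0.3 for the RPKM difference, where 0.1 is the smallest that 3 against 3 libraries allow. Among 19 loci listed as SPL genes, GW8 itself included, GW8 ranked 14 from the highest in both groups. The other 18 had means between 0.00312 and 21.3 RPKM. Of these 18, 8 passed the filter and 0 changed by limma, beside 6.56% of all tested loci. By limma 0 of the 8 had an unadjusted p below 0.05, and 0 were called by limma-voom. Their smallest adjusted p by limma was 0.277, with log2 fold changes from −0.24 to 0.35.

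GRF4 (LOC_Os02g47280, chromosome 2), also known as GS2, encodes a growth-regulating transcription factor that promotes cell expansion, works with GIF co-activators and is repressed by the microRNA miR396. It had 3.60, 3.45 and 2.83 RPKM in the rbpl libraries and 3.38, 3.66 and 3.13 RPKM in the WT libraries. The groups overlapped: rbpl-3 was lowest, WT-2 highest, and the other 4 libraries lay between them. The group means were 3.29 ± 0.406 RPKM in rbpl seeds and 3.39 ± 0.264 RPKM in WT seeds (SD, n = 3 each). Its log2 fold change was −0.03, with a 95% interval from −0.30 to 0.23 (adjusted p = 0.898, limma), and its sign changed under median-of-ratios scaling and without rbpl-3 or WT-2. Among 15 loci listed as GRF or GIF genes, GRF4 included, it ranked 8 from the highest in both groups. Of the other 14, 10 passed the filter and 0 changed by limma, beside 6.56% of all tested loci. By limma 0 of the 10 had an unadjusted p below 0.05, and 0 were called by limma-voom. Their smallest adjusted p by limma was 0.374, with log2 fold changes from −0.13 to 0.25.

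GW7 (LOC_Os07g41200, chromosome 7), also known as GL7 or SLG7, encodes a TONNEAU1-recruiting-motif protein related to LONGIFOLIA of Arabidopsis, and higher GW7 expression is known to give longer, more slender grains. Its level was 0.880, 1.02 and 0.728 RPKM in the rbpl libraries and 3.05, 1.53 and 2.04 RPKM in the WT libraries. Every rbpl library lay below every WT library, as at 17.9% of all tested loci (30.1% separated in either direction). Within the WT group WT-1 was the highest. The reads behind these values numbered 138, 169 and 116 in rbpl and 472, 223 and 340 in WT. The group means were 0.877 ± 0.148 RPKM in rbpl seeds and 2.21 ± 0.771 RPKM in WT seeds (SD, n = 3 each), so that 39.8% of the WT level was left.

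The log2 fold change of GW7 on the RPKM + 1 scale, which understates changes of low genes, was −0.75 ± 0.18 (standard error; adjusted p = 0.0454, limma). On the recovered reads limma-voom gave −1.29 (adjusted p = 0.0320) and called 6.70% of all tested loci. Permuting the libraries gave an exact p of 0.1, the smallest possible. GW7 has a log2 fold change of −1.33 and an unadjusted p of 0.0427 in the authors' deposited table. Of all tested loci, 2.03% had a lower limma log2 fold change than GW7, which entered that set through its WT mean alone. Among the 4333 tested loci with a mean between 1 and 3 RPKM, the range in which GW7 lies, 6.76% changed and 3.18% fell.

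With the filter, the call of GW7 did not rest on WT-1. Without that library the WT mean was 1.79 RPKM, of which 49.1% was left in rbpl. In that fit limma gave a log2 fold change of −0.57 (adjusted p = 0.0101) and called 18.0% of all tested loci. GW7 again entered the test through WT alone, and leaving out both WT-1 and the filter was not tried. The adjusted p of GW7 lay close to the threshold, however. It passed in 6 of the 12 alternatives that tested GW7, with a range from 0.0101 to 0.165. It was 0.0504 under median-of-ratios scaling, 0.0975 with no filter, 0.0961 without WT-3, and 0.164, 0.120 and 0.165 when rbpl-1, rbpl-2 or rbpl-3 was left out. Of the 6 green tissue markers, 3 rose in the comparison with all libraries, as given above. Their part in the fall of GW7 was not tested.

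GS5 (LOC_Os05g06660, chromosome 5) encodes a putative serine carboxypeptidase whose higher expression is known to widen the grain. Its level was 0.919, 1.06 and 0.947 RPKM in the rbpl libraries and 1.55, 1.54 and 1.22 RPKM in the WT libraries. As with GW7, every rbpl library lay below every WT library, a separation in this direction that 17.9% of all tested loci showed (30.1% in either direction). The group means were 0.975 ± 0.0744 RPKM in rbpl seeds and 1.44 ± 0.187 RPKM in WT seeds (SD, n = 3 each), or 67.8% of the WT level. With 84 to 102 reads per rbpl library and 119 to 140 reads per WT library, the spread within each group was near counting error, 7.63% against an expected 10.5% in rbpl and 13.02% against 8.77% in WT. By limma its log2 fold change was −0.30, with a 95% interval from −0.55 to −0.05 and an unadjusted p of 0.0228. After adjustment over all tested loci the p was 0.153, so GS5 did not pass the test. It passed in 0 of 12 alternatives, with an adjusted p from 0.143 to 0.371, and its log2 fold change stayed below 0 in all 12. An unadjusted p below 0.05 was found at 21.6% of all tested loci. For GS5 the authors' deposited table holds −0.56 as log2 fold change and 0.0163 as unadjusted p.

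**Figure D2:**
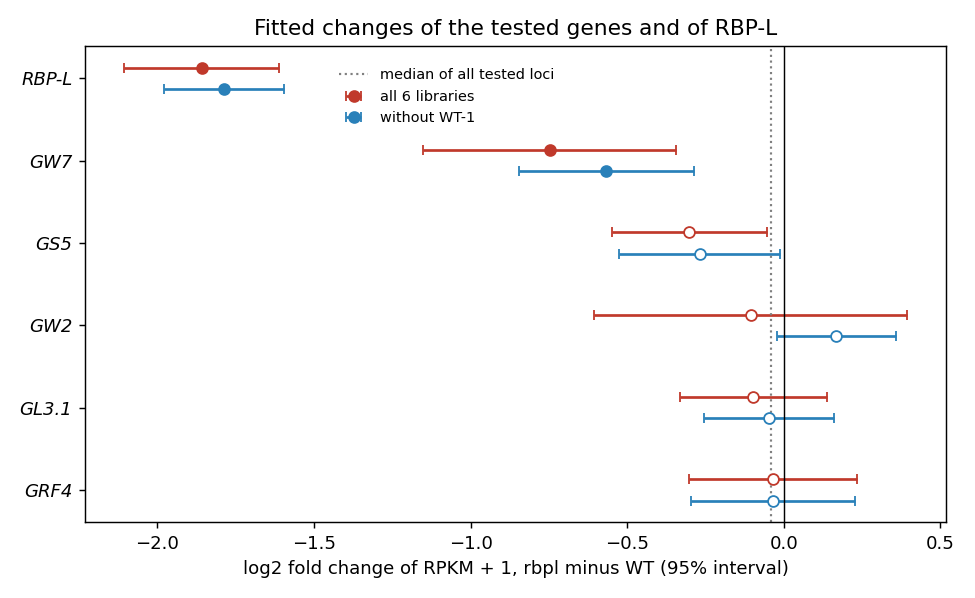
Log2 fold change of RPKM + 1, rbpl minus WT, with 95% intervals from limma for the 5 tested genes and RBP-L, over all 6 libraries and without WT-1; filled points have an adjusted p below 0.05. GW7 is called in both fits (−0.75 and −0.57), while GW2 moves from −0.11 to 0.17 when WT-1 is left out.

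TGW6 (LOC_Os06g41850, chromosome 6) encodes an indole-3-acetic acid-glucose hydrolase, an enzyme that frees auxin, and is known for limiting grain weight. It is listed at 0 RPKM in all 6 libraries, as are 23699 of the 55986 loci (42.3%). No fold can be given. A count of 0 over the 3 libraries of a group allows up to 3 reads, which is 0.0205 RPM (reads scaled to library size alone) in rbpl and 0.0211 RPM in WT, counting error only.

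The order of levels among the 8 genes was the same in both groups except at 1 place. From the highest, it ran GW2, GL3.1 and GRF4, then GS5 and GW7, then GW8, GW5 and TGW6. The ranges of GW2, GL3.1 and GRF4 over the libraries of a group did not overlap one another or the next gene. GW8 and GW5 overlapped in both groups, so their order is not resolved. GW7 and GS5 also overlapped in both groups but changed places between the group means: GW7 stood below GS5 in 3 of 3 rbpl libraries and above it in 2 of 3 WT libraries. The ratio of GW7 to GS5 was 0.958, 0.966 and 0.769 in the rbpl libraries and 1.97, 0.993 and 1.67 in the WT libraries, so that WT-2 lay close to the rbpl libraries. GW2 alone held 63.9% to 66.8% of the summed RPKM of the 8 genes in rbpl libraries and 59.2% to 70.2% in WT libraries. Among the 32287 loci above 0 in at least 1 library, GW2 lay between the percentiles 88.7 and 93.6 of a library, GL3.1 between 75.9 and 77.9, GRF4 between 60.4 and 64.0, GS5 between 47.2 and 52.6 and GW7 between 44.7 and 60.6. GW7 thus covered the widest span of percentiles of these 5.

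**Figure D3:**
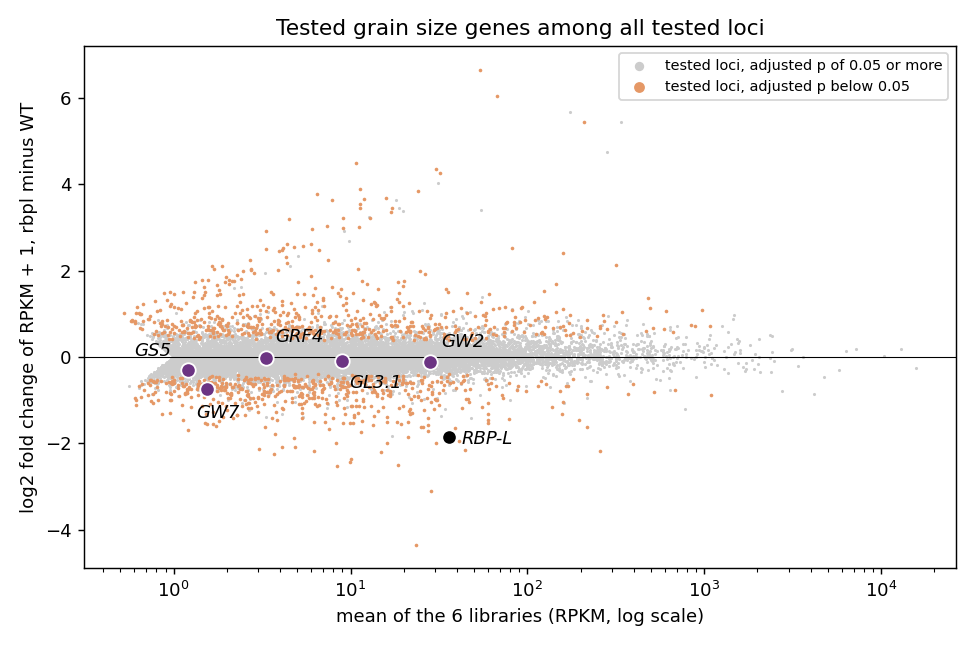
Mean RPKM of the 6 libraries (log scale) against the log2 fold change of RPKM + 1, rbpl minus WT, for all 17507 tested loci, with the 5 tested grain size genes and RBP-L marked. GW7, at a mean between 1 and 3 RPKM, lies at the lower edge of the main cloud, and GW2, GL3.1 and GRF4 lie within it.

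Likeness to the pattern of GW7 was measured as the root mean square difference of log2(RPKM + 1) over the 6 libraries, each locus centred on its own mean. The nearest of all tested loci was LOC_Os04g39880 on chromosome 4, at a difference of 0.046. It averaged 0.746 ± 0.192 RPKM in rbpl and 2.01 ± 0.758 RPKM in WT (SD, n = 3 each). LOC_Os03g47280 on chromosome 3 followed at 0.068, with 0.237 ± 0.114 RPKM in rbpl and 1.13 ± 0.392 RPKM in WT (SD, n = 3 each). Both were picked for matching GW7 in these libraries, so their lower levels in rbpl are a description, and like GW7 both passed the filter through WT alone. Neither locus is annotated with a function in the sources used here. Among the other tested grain size genes GS5 was the nearest to GW7, at 0.302, with 2167 loci nearer than it, followed by GW2 at 0.351, GL3.1 at 0.381 and GRF4 at 0.423, where the median over all tested loci was 0.424. In position along the chromosome, the 5 tested loci on each side of GW7 had log2 fold changes from −0.68 to 0.20, and 1 of the 10 fell. Over the 80 neighbours of all 8 genes, 4 rose and 5 fell (11.2%), beside 6.56% of all tested loci.

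The wider set of grain size genes was read from 7 lists with 61 loci, paired with gene families by general knowledge of rice, since neither the deposited table nor the reference annotates these identifiers. Of the 61, 60 matched a row and 43 passed the filter. By limma 1 rose and 1 fell, 4.65% of those tested, beside 6.56% of all tested loci. The median log2 fold change of the 43 was −0.01. The locus that rose, LOC_Os09g27590 on the list of further grain size genes, averaged 3.16 ± 0.389 RPKM in rbpl and 1.43 ± 0.409 RPKM in WT (SD, n = 3 each). Its log2 fold change was 0.79 (adjusted p = 0.0219, limma; 0.00374 to 0.1001 over the alternatives). The locus that fell was 1 of 8 tested on the list of brassinosteroid genes and other PPKL phosphatases, with 0.732 ± 0.152 RPKM in rbpl and 1.43 ± 0.0807 RPKM in WT (SD, n = 3 each; adjusted p = 0.0376, limma; 0.0119 to 0.174 over the alternatives). It passed the filter through WT alone, and with no filter neither locus was called, with adjusted p of 0.0529 for the rise and 0.0573 for the fall by limma. The lists for the MAP kinase cascade (4 tested), ubiquitin (3 tested) and G protein subunits (2 tested) had 0 calls by limma and by limma-voom, with limma's smallest adjusted p of 0.398, 0.343 and 0.152; 1 of these 9 loci, on the G protein list, had an unadjusted p below 0.05. Without WT-1, 1 of the 4 loci on the MAP kinase list fell (adjusted p = 0.00583, limma), as against an adjusted p of 0.942 with it. Without WT-1, 2 of the 43 listed loci rose and 4 fell, beside 18.0% of all tested loci called.

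**Figure D4:**
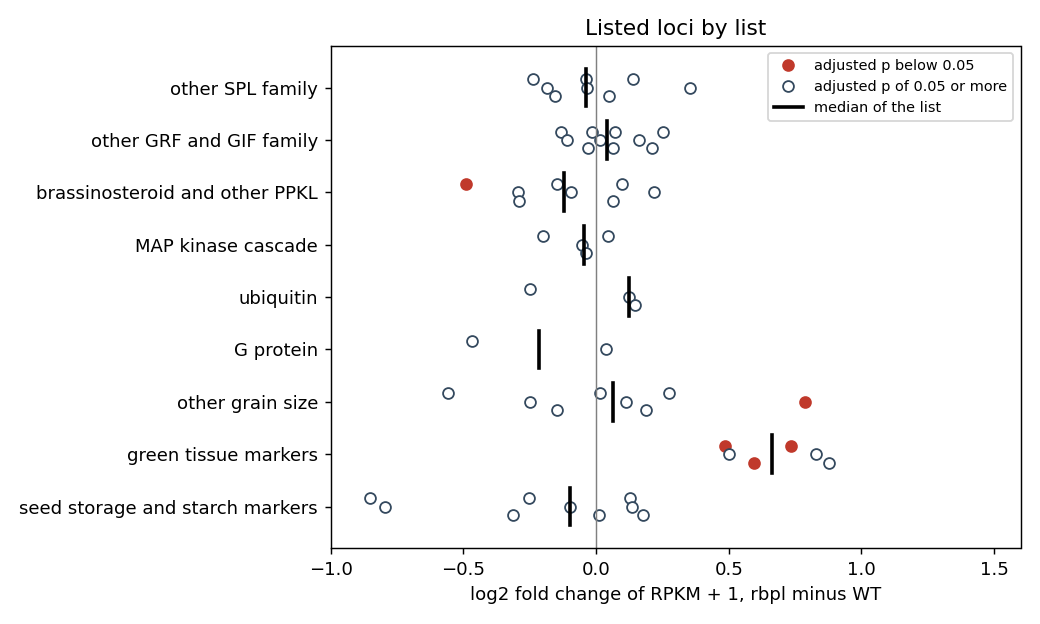
Log2 fold change of RPKM + 1, rbpl minus WT, of each tested locus on the 7 pathway lists and on the lists of green tissue and seed markers; filled points have an adjusted p below 0.05 by limma and bars are list medians. Loci of the SPL, GRF and GIF lists stay between −0.24 and 0.35, and all 6 green tissue markers lie above 0.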

How the data were processed

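The authors deposited 1 table that gives RPKM for the 6 libraries, per the file headers, together with group means, a ratio, a log2 fold change and an unadjusted p-value. Libraries were made with a NEBNext Ultra kit, per the labels' protocols. The sources used here do not give the aligner, counter, build or annotation, nor whether strand was used. The steps of the RPKM values gave back library sizes and reads per locus, whole to within 0.001 reads at 100% of the 32287 loci above 0. If all 6 counts of a locus had a common factor it would be missed, which matters most for low loci such as GW5 and GW8. Reads served for counting intervals and for limma-voom; no molecular identifiers are mentioned, so such intervals cover counting error only.

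Groups were compared with limma 3.58.1 under R 4.3.3, using its trend and robust settings and no covariate, on log2(RPKM + 1) of 17507 loci with a mean of at least 1 RPKM in at least 1 group, two-sided, adjusted over all of them. Permutation tests were exact and two-sided. The code was tested on simulated data. Python 3.11.15, numpy 2.4.6, pandas 2.3.3, scipy 1.17.1 and matplotlib 3.10.9 were used. Members and lists were chosen with earlier results of these data known. The rule for named genes took all 8 members, RBP-L and the 2 loci most like the member with the smallest adjusted p; listed loci are given by counts, and any that passed may be named. Of the member names, 3 of 8 were found in the RefSeq table of assembly ASM3414082v1 (GW2, GW8 and GRF4), each on the chromosome that its identifier carries, and 0 of the file's identifiers were found there. The alternatives were another pseudocount, another filter and none, both scalings, limma-voom, a replicate block and leaving out each library.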

Additional observations from a re-analysis of the deposited data

How the results depend on the processing

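RBP-L fell under each of 13 alternatives (log2 fold change −1.93 to −1.79). The call of GW7 was lost with no filter (−0.75, adjusted p of 0.0975) and under median-of-ratios scaling (−0.71, adjusted p of 0.0504), and GW7 was not tested with a filter of 5 RPKM; the number of grain size genes called was 0 in each of these 3 cases. Leaving out 1 library gave log2 fold changes from −0.90 to −0.57 for GW7, 0 to 1 genes called, −0.25 to 0.17 for GW2 and −0.086 to 0.046 for GRF4, which was 0.012 under median-of-ratios scaling. GL3.1 and GS5 stayed below 0 and uncalled wherever tested. For GW5 the difference of log2 values was 0.019 with all libraries and −0.012 without WT-3. Over all tested loci, 1148 changed, and 660 with a filter of 5 RPKM, which tests 10744 loci. The number ran from 356 (without rbpl-1) to 3130 (without WT-1) when 1 library was left out. The pathway lists held 2 called loci, and 0 with a filter of 5 RPKM, 0 with no filter, 1 under median-of-ratios scaling, 1 with the replicate block and 0 to 6 when 1 library was left out. The cause was not tested. With a pseudocount of 0.1 and under upper-quartile scaling the same 1 gene, GW7, was called. The replicate numbers are only shared: same-numbered libraries had correlations of 0.0476, 0.259 and −0.380 between their deviations from the group mean, and a library correlated best with its own number in 2 of 6 cases. With the replicate block 963 loci changed and GW7 was called with an adjusted p of 0.0377. Depth limits GW5, GW8 and TGW6, whose libraries held at most 14 reads each.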
